A study of Rattus norvegicus with 6 samples.

Results

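Nceh1, Tp53i13, Csgalnact1, Dgkh, Naaladl2 and Ccdc57 are 6 of the 28282 genes in the count tables of nuclei from rat ileum, the last segment of the small intestine. They were selected on their UMI counts summed per rat over nuclei of the crypt, as genes with little spread between rats. There 3 were higher and 3 lower in rats with severe acute pancreatitis (SAP) than in controls (CON). The within-group SD of the log2 level was 0.45 for Nceh1 and Tp53i13, 0.49 for Csgalnact1 and 0.21 to 0.26 for the 3 lower genes. The values in crypt nuclei therefore describe the choice and carry no test, and the question asked here is whether each difference also appeared in the other cell classes of the same rats. All 6 were found in the tables.

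The study took ileum from 6 male wild-type Sprague-Dawley rats, given as 6 weeks old and acclimatised for 7 days before surgery, 24 h after the operation, and prepared 1 single-nucleus RNA library per rat. In the 3 SAP rats 3% sodium taurocholate was run backwards into the pancreatic duct at 0.1 mL per 100 g body weight and the duct was clamped for 5 min, and the 3 CON rats had a sham laparotomy with no infusion. All rats were anaesthetised with pentobarbital sodium and had water but no food after surgery, and the labels put all 6 libraries in batch 1. Bile salt infusion is a chemical model of pancreatitis in young male rats of an outbred stock, and the tables hold no genotype of the animals.

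The intestinal crypt holds stem cells, which divide at its base, and transit-amplifying (TA) cells, whose daughters move up to become enterocytes, goblet, tuft and enteroendocrine cells, while Paneth cells stay at the base. The 6 genes do not form a pathway. Nceh1 encodes an endoplasmic reticulum hydrolase of the arylacetamide deacetylase family that releases cholesterol from its esters. Tp53i13 is named for its induction by p53, the factor that halts division after DNA damage. Csgalnact1 encodes the enzyme that starts chondroitin sulfate chains on core proteins. Dgkh encodes the eta isoform of diacylglycerol kinase, which turns diacylglycerol into phosphatidic acid, so that a lipid signal ends and another begins. Naaladl2 belongs to the glutamate carboxypeptidase II family, and Ccdc57 encodes a protein of centrosomes and centriolar satellites, the structures from which spindle microtubules and cilia are organised.

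RefSeq's table of promoters (build GRCr8) held 5 of the 6 genes. The 250 bases before the annotated start of the gene are shown for the 3 whose window held any of 3 common promoter motifs, with matches to an E-box (CACGTG), a GC box (GGGCGG) or a CCAAT box (CCAAT) on either strand in capitals. Neighbouring matches can share bases, as do GC boxes of Tp53i13. The first is on chr2:112003427-112003676 (+ strand), the second on chr10:62859470-62859719 (− strand) and the third on chr15:60559778-60560027 (− strand).
Nceh1: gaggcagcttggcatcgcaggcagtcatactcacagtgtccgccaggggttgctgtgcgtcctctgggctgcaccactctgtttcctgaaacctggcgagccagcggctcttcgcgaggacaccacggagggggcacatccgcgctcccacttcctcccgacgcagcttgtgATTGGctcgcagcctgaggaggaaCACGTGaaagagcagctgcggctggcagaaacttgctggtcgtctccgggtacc
Tp53i13: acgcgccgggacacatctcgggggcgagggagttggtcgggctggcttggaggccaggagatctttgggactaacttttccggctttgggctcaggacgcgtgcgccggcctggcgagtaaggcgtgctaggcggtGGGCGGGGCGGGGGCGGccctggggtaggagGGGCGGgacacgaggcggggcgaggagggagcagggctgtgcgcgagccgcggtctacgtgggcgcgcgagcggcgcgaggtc
Dgkh: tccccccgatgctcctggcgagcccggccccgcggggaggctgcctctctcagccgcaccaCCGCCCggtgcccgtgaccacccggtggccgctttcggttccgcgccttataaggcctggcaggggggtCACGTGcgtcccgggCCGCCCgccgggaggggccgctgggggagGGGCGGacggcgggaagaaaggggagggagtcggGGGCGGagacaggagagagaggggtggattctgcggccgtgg
Nceh1 held 1 E-box and 1 CCAAT box, Tp53i13 held 4 GC boxes, and Dgkh held 1 E-box and 4 GC boxes. Of 27457 promoters of the same length, 5.78% held an E-box, 32.4% a GC box and 34.3% a CCAAT box. The half-site of p53, searched by its consensus, was in 6.54% of promoters and in none of these 5. G and C made up 63.2%, 73.2% and 75.6% of the 3 windows, against a median of 52% over all promoters. The windows of Naaladl2 (43.6% G and C) and Ccdc57 (52.4%) held none of the motifs. These matches describe letters and not binding.

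Of 90461 barcodes 40970 passed the study's thresholds of at least 1200 UMIs (unique molecular identifiers, 1 per captured transcript), at least 500 genes and at most 5% mitochondrial UMIs, from 3189 to 9246 per library with 5549260 to 28771508 UMIs. Levels are in CPM, a gene's UMIs per 1000000 UMIs of the same nuclei of a rat, and cell classes are clusters of nuclei named after marker genes with the ending −like. The ileal bile acid transporter Slc10a2 stood at 145 to 565 CPM in enterocyte-like and 41.3 to 154 in non-epithelial nuclei. The median mitochondrial share was 0.125% to 0.70% in CON and 0.387% to 1.84% in SAP libraries. The tables of CON replicate 2 and SAP replicate 1 list barcodes under 1000 UMIs and the other 4 do not.

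Crypt nuclei are here the stem/TA-like cluster (10044 nuclei) and cluster 7 (1405 nuclei). Stem/TA-like nuclei carried Olfm4 and the cycling markers Top2a and Mki67. In them 7 of 10 stem and 6 of 10 TA markers were above 2 times their mean in other epithelial nuclei. In cluster 7 the stem cell marker Lgr5 stood at 402 ± 124 CPM (SD, n = 3) in CON, against 120 ± 30.5 in stem/TA-like nuclei. Olfm4 went the other way, at 186 ± 58.7 against 596 ± 280 CPM. Mmp7, a protease of Paneth cells, stood at 762 ± 295 CPM in cluster 7. There 7 of 7 detected Paneth markers, 5 of 10 stem and 0 of 10 TA markers were above 2 times their mean in other epithelial nuclei. Cluster 7 scored highest on Paneth markers (mean log2 ratio 1.73), then on stem markers (0.67), and was given no class name. It made up 10.3%, 13.3% and 16.9% of crypt nuclei in CON and 10.3%, 10.5% and 10.1% in SAP. The 2 clusters are described apart because the 6 genes differed between them.

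Nceh1 was higher in SAP in both crypt clusters. In stem/TA-like nuclei it stood at 4.49, 4.87 and 8.62 CPM in the CON rats and at 30.4, 33.7 and 24.8 CPM in the SAP rats. In cluster 7 the levels were 25.9, 39.4 and 56.7 CPM in CON and 73.0, 85.8 and 74.7 CPM in SAP. All 3 SAP rats lay above all 3 CON rats in both clusters, as did 5.65% of all genes in stem/TA-like nuclei and 6.12% in cluster 7, while 6.88% and 5.04% lay wholly below. Fitted by edgeR, the log2 fold change was 2.37 (standard error 0.37) in the former, 0.94 (0.31) in the latter and 1.68 (0.35) in all crypt nuclei together.

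Tp53i13 stood at 13.3, 17.9 and 17.5 CPM in stem/TA-like nuclei of CON rats and at 56.4, 105 and 52.4 CPM in SAP. In cluster 7 the levels were 15.9, 22.5 and 22.2 CPM against 29.2, 121 and 61.7 CPM. The groups did not overlap in either, and SAP replicate 2 was the highest rat in both. The log2 fold changes were 2.21 (standard error 0.37) in stem/TA-like nuclei and 1.83 (0.42) in cluster 7, where the lowest SAP value rests on 4 UMIs. Over all crypt nuclei the fold change was 2.15 (0.37), and without SAP replicate 2 it was 1.64.

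Csgalnact1 differed between groups in stem/TA-like nuclei and not in cluster 7. In stem/TA-like nuclei it stood at 16.9, 34.1 and 54.9 CPM in CON and at 101, 186 and 175 CPM in SAP, without overlap, and the log2 fold change was 2.21 (standard error 0.41). In cluster 7 it was already high in CON, at 244, 265 and 343 CPM, and stood at 234, 296 and 266 CPM in SAP, so that the groups overlapped (log2 fold change −0.11, standard error 0.21). The SAP level in stem/TA-like nuclei lay between the CON levels of the 2 clusters. Over all crypt nuclei the fold change was 1.21 (0.30).

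Dgkh was lower in SAP in both clusters. In stem/TA-like nuclei it stood at 683, 602 and 761 CPM in CON and at 289, 288 and 410 CPM in SAP. In cluster 7 the levels were 320, 370 and 290 CPM against 204, 277 and 227 CPM. The groups did not overlap in either, and the CON rats of cluster 7 stood near the SAP rats of stem/TA-like nuclei. The log2 fold changes were −1.03 (standard error 0.20) and −0.50 (0.23), and −0.95 (0.18) over all crypt nuclei.

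Naaladl2 stood at 129, 133 and 151 CPM in stem/TA-like nuclei of CON and at 76.1, 51.3 and 75.2 CPM in SAP. In cluster 7 it stood at 806, 896 and 1139 CPM in CON and at 577, 417 and 790 CPM in SAP. The highest SAP rat was below the lowest CON rat in both, in cluster 7 by a small margin. The log2 fold changes were −0.99 (standard error 0.21), −0.68 (0.24) and, over all crypt nuclei, −1.01 (0.19). The level in cluster 7 was above that of stem/TA-like nuclei in every rat.

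Ccdc57 differed between groups in cluster 7 alone of the 2 clusters. There it stood at 319, 276 and 356 CPM in CON (320, 196 and 289 UMIs) and at 43.8, 42.9 and 81.2 CPM in SAP (6, 11 and 25 UMIs), which gave a log2 fold change of −2.52 (standard error 0.29). In stem/TA-like nuclei it stood at 55.8, 93.5 and 71.9 CPM in CON and at 72.5, 68.9 and 88.0 CPM in SAP, with overlap, and the log2 fold change was 0.10 (0.22). The SAP rats of cluster 7 overlapped those of stem/TA-like nuclei. The SAP mean was lower for all 10 genes that lead cluster 7 against other nuclei, with log2 ratios of the means from −2.04 to −0.11. The groups were apart for 4 of them (Pkhd1, Cfap210, Dnah12 and LOC102551027). These 10 were picked with all rats pooled, and CON gave more nuclei of the cluster (353, 345 and 379) than SAP (80, 104 and 144). The choice thus favours genes that are high in CON, and their direction is a description only. Pkhd1, which encodes fibrocystin of primary cilia, had a CON mean of 391 ± 113 CPM (SD, n = 3) and a SAP mean of 95.5 ± 29.0, and Gfra4 had 719 ± 118 and 617 ± 185. Whether the nuclei gathered in cluster 7 differ in kind between the groups was not tested. Over all crypt nuclei the log2 fold change of Ccdc57 was −0.58 (0.18).

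**Figure D1:**
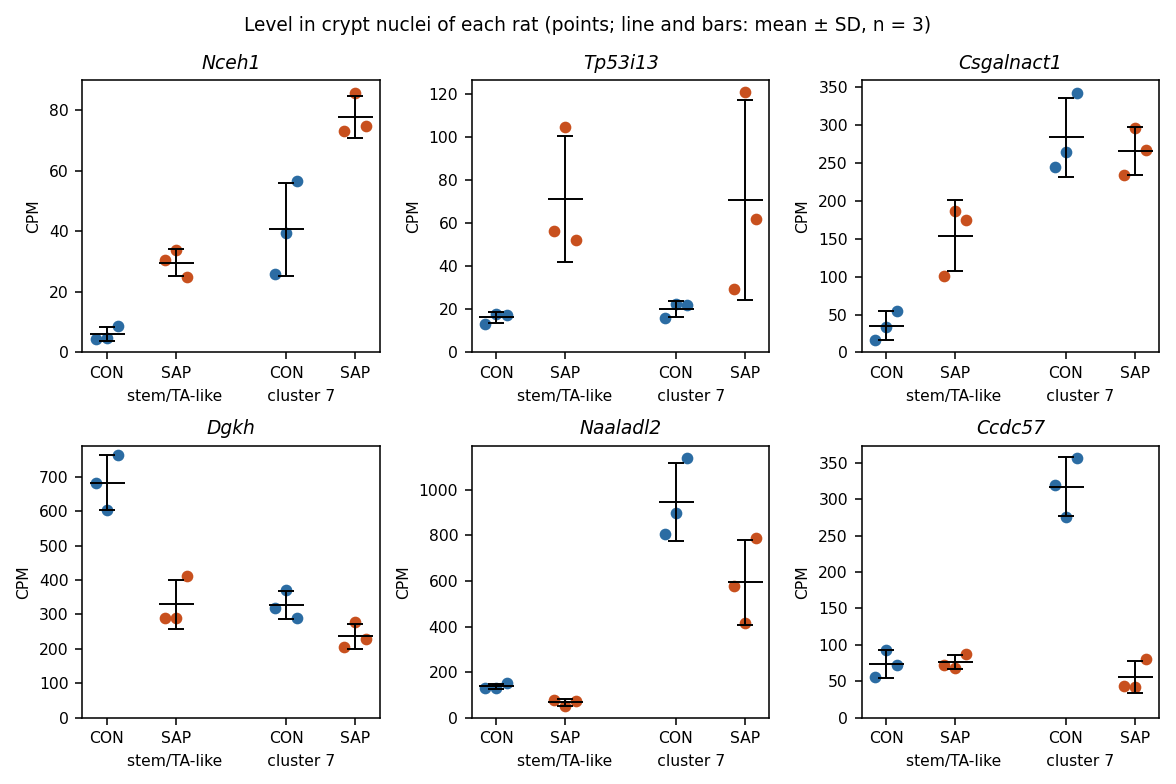
Level of the 6 genes (CPM, vertical axis from 0) in stem/TA-like nuclei and in cluster 7, 1 point per rat (CON blue, SAP orange), with the mean and SD of the 3 rats of a group as black lines. Csgalnact1 separates the groups in stem/TA-like nuclei only, from 35.3 ± 19.0 to 154 ± 46.3 CPM, and Ccdc57 in cluster 7 only, from 317 ± 40.3 to 56.0 ± 21.9 CPM.

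In the sums over both clusters every SAP rat was above every CON rat for the 3 higher genes and below for the 3 lower genes, which the choice fixed. Of the 13674 genes tested there, 5.49% lay above and 6.75% below in this way. Sums of marker lists, of other cells and of the crypt itself, are given beside these values. The 12 enterocyte markers summed to 514 to 1999 CPM in stem/TA-like nuclei of CON and 1766 to 5059 CPM in SAP, with the highest value in SAP replicate 2 and 2 of 12 markers without overlap. The 10 TA markers summed to 965 to 1135 CPM in CON and 214 to 1028 CPM in SAP, with 2 of 10 lower without overlap, and the 10 stem markers to 2420 to 3461 and 984 to 2836 CPM. The 7 detected Paneth markers, highest in replicate 1 of both groups, summed to 1802 to 28823 CPM in CON and to 1453 to 29026 CPM in SAP. None of the markers of these 4 lists was at 0, and their part in the differences was not tested. In nuclei with at most 2% mitochondrial UMIs the fold changes over crypt nuclei were 1.68, 2.15 and 1.20 for Nceh1, Tp53i13 and Csgalnact1 and −0.96, −0.99 and −0.62 for Dgkh, Naaladl2 and Ccdc57.

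Within the pair of libraries that list barcodes under 1000 UMIs, the log2 ratio of SAP to CON in crypt nuclei was 1.78 for Nceh1, 1.52 for Tp53i13, 0.73 for Csgalnact1, −1.02 for Dgkh, −0.94 for Naaladl2 and −0.81 for Ccdc57. Within the other 4 libraries it was 1.53, 2.33, 1.31, −0.95, −1.10 and −0.52 in the same order. Each gene kept its direction in both sets, which the full separation of the groups in these sums already fixed.

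Outside the crypt, 14 classes had at least 10 nuclei in every library. They were goblet-like, enterocyte-like, tuft-like, enteroendocrine-like, T-like, B-like, macrophage-like, smooth muscle (SMC)-like, fibroblast-like, endothelial-like and neuron-associated (NAC)-like nuclei and the unnamed clusters 1, 6 and 14, of which 1 is close to enterocyte-like nuclei and 6 carries goblet and ribosomal genes. Cluster 6 scored highest on goblet markers (mean log2 ratio 1.19) and next on TA markers (0.96). Its closest named cluster in level was Paneth-like. It counts as outside the crypt only because goblet markers came first. The 14 classes come from the same 6 rats, so they are not independent of the crypt or of each other. Differences were tested in each with edgeR's quasi-likelihood test on UMIs summed per rat, with Benjamini-Hochberg adjustment over all genes of the class, and a difference was called when that p was below 0.05 with a change of 0.5 or more on the log2 scale in either direction. Of 74 tests of the 6 genes, edgeR called 0, DESeq2 called 4, and 44 had an unadjusted p under 0.05 in edgeR. Over all genes of these classes edgeR called 0% higher and 0.00866% lower, DESeq2 called 0.299% higher and 0.205% lower, and 7.79% had an unadjusted p under 0.05. Genes with low counts were left out of the tests, and a gene can pass through its higher group alone. The classes tested for a gene are therefore not a fair count of the 14. The values of each gene follow, with directions that rest on no call.

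Tp53i13 was higher in SAP in all 14 classes by its mean. The means ranged from 22.7 to 44.8 CPM in CON and from 46.5 to 115 CPM in SAP. In 12 of the 14 SAP and CON rats were fully apart. Of the 12 classes tested 11 were, and SAP lay wholly above CON in 4.69% of all tests in these classes. NAC-like nuclei were fully apart but not tested, and their lowest SAP value is 1 UMI. In T-like nuclei, for example, the levels were 31.5, 38.7 and 31.0 CPM in CON and 112, 102 and 88.0 CPM in SAP. In fibroblast-like nuclei they were 28.8, 48.5 and 57.1 CPM against 103, 122 and 119 CPM. The log2 fold change ranged from 1.29 in B-like to 1.96 in goblet-like nuclei over the 12 classes tested. Each had an unadjusted p under 0.05 in edgeR, and the adjusted p was from 0.136 in SMC-like nuclei upwards. Tp53i13 can pass the filter on low counts through SAP alone, so these 12 are not a fair count of the 14. Endothelial-like nuclei were not tested and overlapped, at 4.25, 51.9 and 45.8 CPM in CON and 36.6, 67.9 and 35.0 CPM in SAP. DESeq2 called Tp53i13 in cluster 1 (adjusted p = 0.000996, beside 1.17% of all genes called higher), T-like (0.00714, beside 0.156%) and goblet-like nuclei (0.0106, beside 0.311%). Summed over all non-epithelial nuclei it stood at 27.9, 38.7 and 40.7 CPM in CON and 91.2, 95.6 and 88.5 CPM in SAP. The log2 fold change was 1.45 there (standard error 0.24, edgeR, adjusted p = 0.568), beside 2.15 in the crypt. DESeq2 called Tp53i13 higher in non-epithelial nuclei (adjusted p = 0.00231), as it did 0.261% of all genes. It also called Tp53i13 higher over other epithelial nuclei (adjusted p = 0.00855), as it did 0.543% of all genes, with an adjusted p of 0.427 in edgeR.

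Dgkh was lower in SAP in all 14 classes, and in all 14 the highest SAP rat was under the lowest CON rat, as in 7.34% of all tests. In B-like nuclei the margin was less than 1 CPM, with 347 CPM in both the lowest CON and the highest SAP rat. In tuft-like nuclei, the class with the highest CON level after stem/TA-like nuclei, Dgkh stood at 587, 512 and 552 CPM in CON and at 247, 294 and 319 CPM in SAP. In SMC-like nuclei it stood at 354, 392 and 327 CPM and at 137, 220 and 177 CPM. The log2 fold change ranged from −0.97 in T-like and SMC-like to −0.53 in enteroendocrine-like nuclei, with an unadjusted p under 0.05 in 10 of 14 (lowest adjusted p = 0.167, edgeR), and DESeq2 called 0. The values of cluster 7 (−0.50, standard error 0.23) and stem/TA-like nuclei (−1.03, 0.20) lay outside this range on opposite sides. Each did so by less than its standard error.

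Naaladl2 was lower in SAP in all 14 classes by its mean and without overlap in 9, as in 7.34% of all tests. In goblet-like nuclei it stood at 166, 214 and 194 CPM in CON and at 113, 88.2 and 87.2 CPM in SAP. In SMC-like nuclei it stood at 135, 178 and 266 CPM and at 65.6, 39.0 and 105 CPM, the largest fold change of the 14 (−1.41, standard error 0.38, edgeR, adjusted p = 0.154). In the other 5 they overlapped. Tuft-like nuclei were nearest to 0, at 185, 253 and 297 CPM in CON and 398, 180 and 130 CPM in SAP (log2 fold change −0.02, 95% interval −0.94 to 0.90). An unadjusted p under 0.05 was found in 8 of 14, and DESeq2 called 0 of the 14. Summed over other epithelial nuclei, DESeq2 called Naaladl2 lower (log2 fold change −0.91, adjusted p = 0.0360), as it did 0.494% of all genes there. The adjusted p of edgeR for this sum was 0.427.

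Csgalnact1 was higher in SAP in all 14 classes by its mean, and without overlap in 5, as in 4.69% of all tests. Those 5 were T-like, B-like, tuft-like and macrophage-like nuclei and cluster 14. In macrophage-like nuclei, with the largest fold change (1.78, standard error 0.43, edgeR, adjusted p = 0.740), it stood at 28.3, 33.8 and 62.4 CPM in CON and at 81.4, 186 and 124 CPM in SAP. In enterocyte-like nuclei it stood at 24.9, 93.4 and 76.5 CPM and at 64.4, 88.4 and 94.1 CPM (log2 fold change 0.48, 95% interval −0.28 to 1.24). CON replicate 1 was the lowest rat in both. An unadjusted p under 0.05 was found in 10 of 13 classes tested, the lowest adjusted p was 0.295, and DESeq2 called 0.

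Nceh1 was higher in SAP in all 14 classes by its mean, without overlap in 6, and SAP lay wholly above CON in 4.69% of all tests in these classes. Of the 6, 3 passed the filter on low counts. Endothelial-like nuclei, which did not pass, had 0, 0 and 6 UMIs in CON and 2, 5 and 13 UMIs in SAP. The UMIs of Nceh1 were few, and only 7 of the 14 classes passed. Such a gene can pass through its higher group alone, so the 7 are not a fair count of the 14. In cluster 1 it stood at 5.75, 8.67 and 16.9 CPM in CON and at 27.9, 25.7 and 56.6 CPM in SAP. The log2 fold change was 1.88 (standard error 0.43), with an adjusted p of 0.186 in edgeR. DESeq2 called Nceh1 higher there (adjusted p = 0.0188), as it did 1.17% of all genes. In macrophage-like nuclei, which had the highest CON mean outside the crypt, it stood at 41.7, 13.5 and 59.8 CPM and at 81.4, 10.3 and 60.3 CPM (log2 fold change 0.09, 95% interval −1.24 to 1.42). SMC-like nuclei had 19.8, 25.4 and 22.3 CPM in CON and 32.8, 19.5 and 35.6 CPM in SAP (log2 fold change 0.43, 95% interval −0.46 to 1.31). Over other epithelial nuclei the fold change was 1.39 (standard error 0.35) and over non-epithelial nuclei 0.90 (0.31), beside 2.37 in stem/TA-like nuclei and 0.94 in cluster 7. DESeq2 called Nceh1 higher over other epithelial nuclei (adjusted p = 0.0412), as it did 0.543% of all genes, with an adjusted p of 0.427 in edgeR.

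Ccdc57 had small differences outside the crypt. In the 14 classes its log2 fold change ranged from −0.45 in macrophage-like to 0.33 in fibroblast-like nuclei, 0 had an unadjusted p under 0.05, and neither edgeR nor DESeq2 called it. The groups did not overlap in macrophage-like nuclei alone, at 67.0, 108 and 67.6 CPM in CON and 27.1, 56.7 and 62.1 CPM in SAP, and the first of these SAP values is 1 UMI. In enterocyte-like nuclei it stood at 29.8, 58.0 and 45.8 CPM and at 27.2, 47.3 and 47.1 CPM. Its SAP mean was lower in 11 of the 14 classes and higher in 3. The log2 fold change was −0.12 (95% interval −0.63 to 0.39) over other epithelial nuclei and −0.19 (−0.76 to 0.39) over non-epithelial nuclei.

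**Figure D2:**
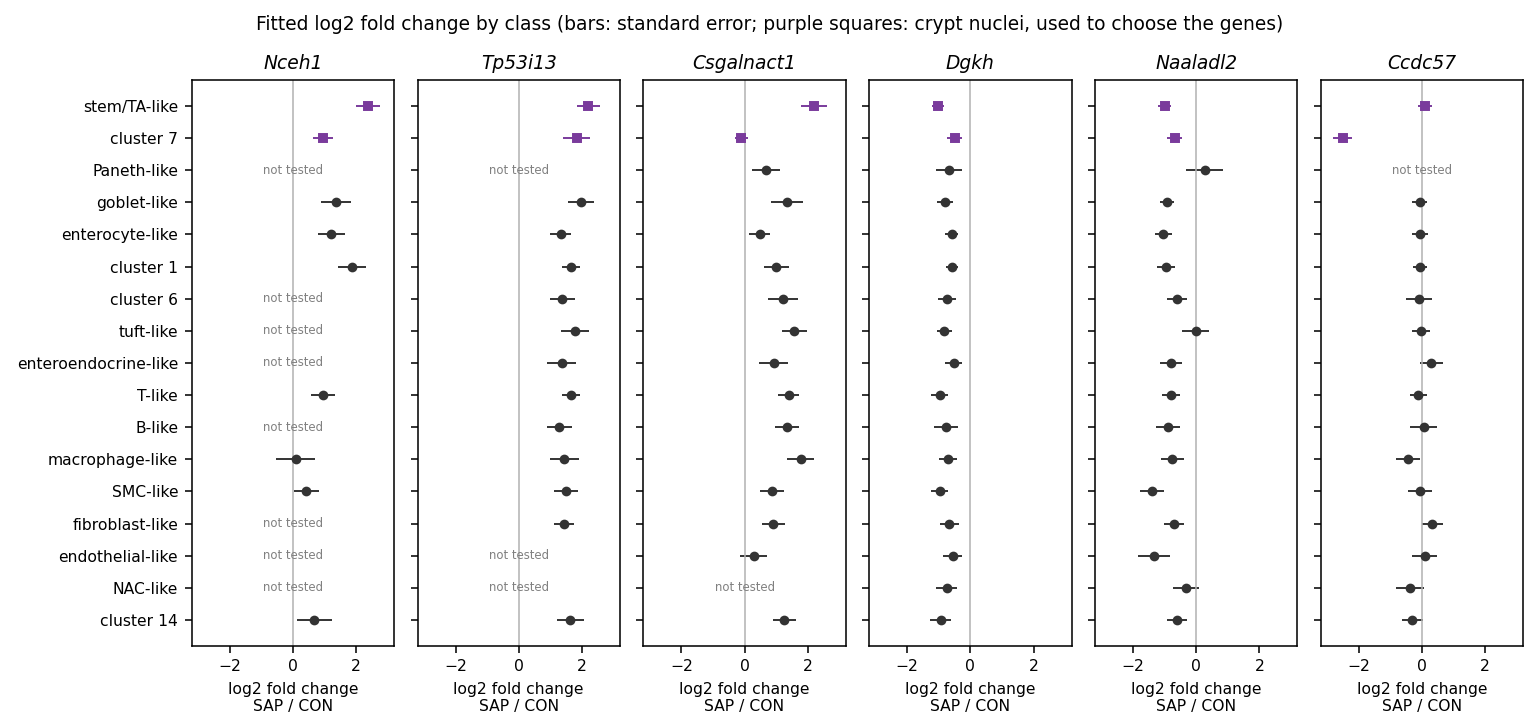
Log2 fold change of SAP against CON fitted by edgeR (horizontal axis) for the 6 genes in 17 classes, with the standard error as bars and crypt nuclei, whose values chose the genes, as purple squares. Tp53i13 lies between 1.29 and 2.21 and Dgkh between −1.03 and −0.50 in every class shown for them, and Ccdc57 lies at −2.52 in cluster 7 and between −0.45 and 0.33 elsewhere. Where no value stands, the gene had too few UMIs to test.

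By these values 5 of the 6 genes had a SAP mean on the side of the summed crypt in all 14 classes and Ccdc57 in 11. The share of all genes that keep a direction in this way was not counted. For Nceh1 only 7 of the 14 classes passed the filter on low counts. In tuft-like nuclei the means of Naaladl2 were near, at 245 CPM in CON and 236 in SAP. Stem/TA-like nuclei and cluster 7 themselves differed for Csgalnact1 (2.21 and −0.11) and Ccdc57 (0.10 and −2.52). No test of crypt against other classes was made, since the crypt values chose the genes. Paneth-like nuclei, which lie at the crypt base, were few (607) and varied more. Csgalnact1 had a log2 fold change of 0.67 there (standard error 0.44), Dgkh −0.67 (0.41) and Naaladl2 0.27 (0.58), and the other 3 genes did not pass the filter. Naaladl2 ranged from 33.4 to 194 CPM in CON and from 29.9 to 276 CPM in SAP.

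Levels in CON rats ordered the classes differently for each gene. Csgalnact1, Naaladl2, Ccdc57 and Nceh1 were highest in cluster 7. For Csgalnact1 it was followed by cluster 1 (121 ± 68.1 CPM, SD, n = 3), for Naaladl2 by tuft-like nuclei (245 ± 56.9) and for Ccdc57 by NAC-like nuclei (147 ± 50.2), in each case without overlap with cluster 7. For Nceh1 cluster 7 (40.7 ± 15.4 CPM) overlapped macrophage-like nuclei (38.3 ± 23.3). Dgkh was highest in stem/TA-like nuclei, at 682 ± 79.6 CPM, followed by tuft-like nuclei at 550 ± 37.7 without overlap, and Tp53i13 in fibroblast-like nuclei (44.8 ± 14.5 CPM) without separation from B-like nuclei (40.1 ± 9.67). Stem/TA-like nuclei had the lowest CON mean of the 17 classes for Csgalnact1 and the second lowest for Nceh1 and Tp53i13. Below the highest class the neighbouring classes in these orders overlapped for all genes, except enteroendocrine-like and cluster 1 nuclei for Naaladl2.

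**Figure D3:**
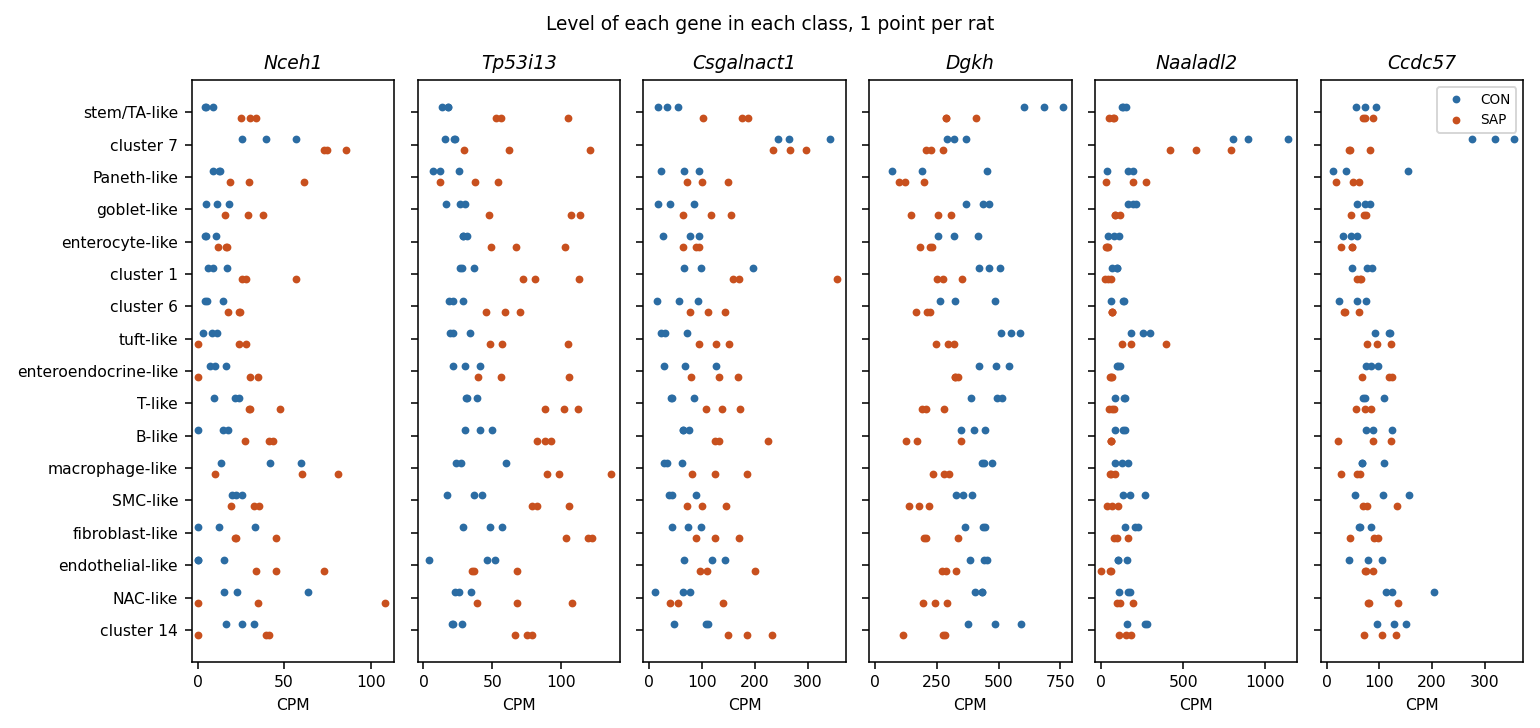
Level of the 6 genes (CPM, horizontal axis) in 17 classes, 1 point per rat (CON blue, SAP orange). The orange points of Dgkh lie to the left of the blue ones in 16 of 17 classes, Paneth-like nuclei being the exception, and the blue points of Naaladl2, Ccdc57 and Csgalnact1 in cluster 7 stand to the right of the blue points of all other classes.

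Droplets also capture free RNA, so markers that T cells should lack were read in T-like nuclei, as a share of the level in stem/TA-like nuclei of the same rat. Their shares differed widely. The crypt marker Olfm4 stood at 28.9% to 47.4% in CON and 28.7% to 37.3% in SAP, and the Paneth cell defensin Defa24 at 72.1% to 123% and 52.7% to 97.8%. The goblet mucin Muc2 stood at 241% to 330% in CON and 181% to 245% in SAP. Tp53i13 stood there at 177% to 237% in CON and 97.3% to 198% in SAP, and Csgalnact1 at 125% to 242% and 78.1% to 106%. Nceh1 stood at 199% to 483% in CON and 87.3% to 192% in SAP. In CON those 3 genes were thus higher in T-like than in stem/TA-like nuclei in every rat, as was Muc2, and the stem/TA-like level they are set against is among the values that chose them. Dgkh stood at 51.0% to 85.4% and 50.1% to 96.6%, Naaladl2 at 67.9% to 106% and 62.2% to 135%, and Ccdc57 at 100.5% to 123% and 77.1% to 106%. The part of free RNA from other cells in these levels was not tested.

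**Figure D4:**
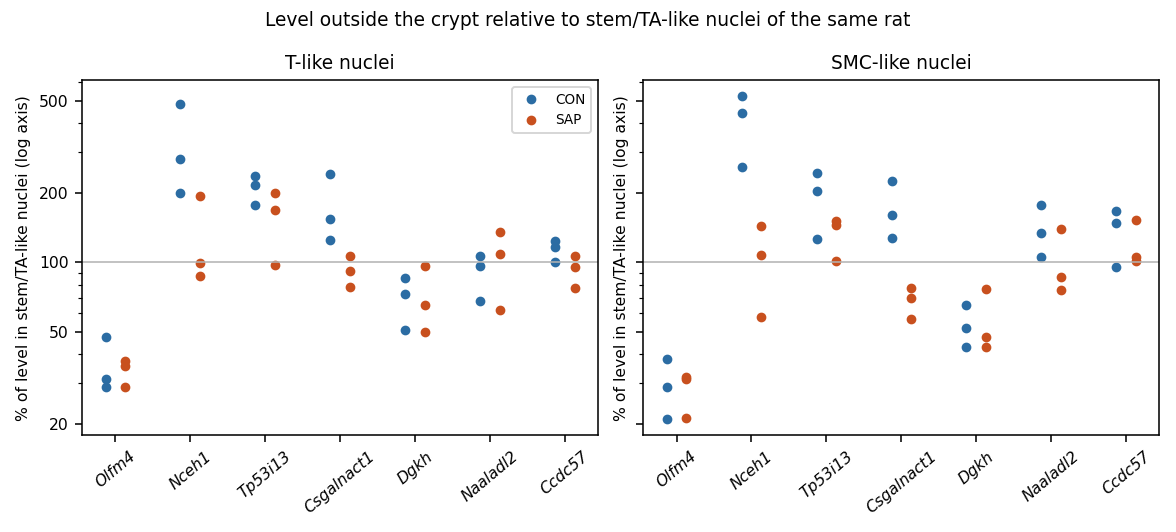
Level of Olfm4 and the 6 genes in T-like (left) and SMC-like nuclei (right) as a percentage of the level in stem/TA-like nuclei of the same rat (vertical log axis, line at 100), 1 point per rat (CON blue, SAP orange). Olfm4 stays between 20.9% and 47.4%, and for Nceh1 and Csgalnact1 the SAP points lie below the CON points in both classes.

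Other genes of each gene's pathway or family were read from lists that left the gene itself out. In crypt nuclei edgeR and DESeq2 each called 0 genes of the 6 lists. Over all 13674 genes there, edgeR called 0% higher and 0.00731% lower, DESeq2 called 0.658% higher and 0.366% lower, 8.97% had an unadjusted p under 0.05 in edgeR, and the median log2 fold change was 0.01. Of 23 p53-induced genes tested beside Tp53i13, 20 were higher and 3 lower in SAP, with a median of 0.38, and 6 higher and 1 lower had an unadjusted p under 0.05. Sfn, a brake of the cell cycle, stood at 9.71, 8.02 and 9.50 CPM in CON and 16.7, 47.1 and 20.3 CPM in SAP (log2 fold change 1.68, edgeR, adjusted p = 0.503), and Gadd45a, a growth arrest gene, at 4.42, 8.02 and 9.95 against 13.6, 22.6 and 21.0 CPM (1.42, adjusted p = 0.490). At the other end were Polk, a polymerase that copies damaged DNA (−0.63, adjusted p = 0.529), and Ddb2, which recognises such damage (−0.25, adjusted p = 0.803). In non-epithelial nuclei 20 of 24 were higher, with a median of 0.39, and DESeq2 called Sfn there (0.261% of all genes called higher) and in other epithelial nuclei (0.543%). In the latter 17 of 23 were higher and 6 lower, with a median of 0.37. In cluster 7, where Tp53i13 was at 1.83, 7 of 12 tested were higher and 5 lower, with a median of 0.23.

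Of 19 genes of centriole duplication and centriolar satellites tested beside Ccdc57 in crypt nuclei, 17 were lower and 2 higher, with a median log2 fold change of −0.47, and 5 had an unadjusted p under 0.05, all lower. Aspm (−1.20, edgeR, adjusted p = 0.556) and Stil (−1.14, adjusted p = 0.542), which act at spindle poles and in centriole assembly, were at the low end. Both were lower without overlap of the groups, as were 6.75% of all genes tested in crypt nuclei. For Aspm the margin was small, with 44.2 CPM in the lowest CON rat and 44.1 CPM in the highest SAP rat. Ofd1 (0.09) and Cep131 (0.08) were at the high end. The list was also lower in 17 of 19 in stem/TA-like nuclei, where Ccdc57 itself was at 0.10, in 18 of 19 in other epithelial nuclei (median −0.53) and in 19 of 19 in non-epithelial nuclei (median −0.42). In these 5, 9 and 2 genes of the list had an unadjusted p under 0.05 in edgeR, all lower. Over all genes the shares were 8.73%, 10.4% and 6.95% in the same order. In cluster 7, where Ccdc57 was at −2.52, 9 of 11 tested were lower, with a median of −0.32 and 1 with an unadjusted p under 0.05, as had 9.95% of all genes of that cluster. The sums of TA markers given above ranged lower in SAP with overlap, and their part was not tested.

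Of 8 other diacylglycerol kinases tested in crypt nuclei, 5 were higher and 3 lower, with a median of 0.44. Dgkz moved in the direction of Dgkh, at 317, 457 and 342 CPM in CON and 183, 243 and 288 CPM in SAP (log2 fold change −0.62, edgeR, adjusted p = 0.529), without overlap. Dgkg stood at 2.06, 6.50 and 10.2 CPM in CON and 13.6, 23.2 and 13.9 CPM in SAP (1.54, adjusted p = 0.538), again without overlap. Dgka (0.91, adjusted p = 0.556) and Dgkb (−0.66, adjusted p = 0.839) overlapped between groups. Of these kinases 2 higher and 1 lower had an unadjusted p under 0.05. In non-epithelial nuclei DESeq2 called Dgkb lower, as it did 0.237% of all genes.

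Of 10 genes of cholesteryl ester turnover tested beside Nceh1, 6 were higher and 4 lower, with a median of 0.38, and 2 higher had an unadjusted p under 0.05. They included Lipe, a hormone-sensitive lipase (1.71, edgeR, adjusted p = 0.556), whose SAP rats stood at 9.57, 66.7 and 17.1 CPM, and Soat2, which makes cholesterol esters, had 0.84 (adjusted p = 0.563). Soat1 (−0.21) and Npc2 (−0.12) were at the low end. DESeq2 called Plin2, a coat protein of lipid droplets, higher in other epithelial nuclei, as it did 0.543% of all genes, and in non-epithelial nuclei (0.261%). In both sums edgeR called 0 genes of this list. Of 15 genes of chondroitin and dermatan sulfate synthesis tested beside Csgalnact1, 10 were higher and 5 lower, with a median of 0.20, and 0 had an unadjusted p under 0.05. Chpf2 (−0.72), Ust (−0.67), Dse (0.67) and Chst15 (0.50) were its ends. In the family of Naaladl2 only Naaladl1, at 109, 60.5 and 320 CPM in CON and 465, 1473 and 235 CPM in SAP (2.29, adjusted p = 0.538), and the transferrin receptor Tfrc (−0.35, adjusted p = 0.675) were tested.

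Genes next to the 6 in the RefSeq annotation were read in the same nuclei, and 0 had an unadjusted p under 0.05. Beside Tp53i13 stand Git1 (log2 fold change 0.31, edgeR, adjusted p = 0.687) and Taok1 (0.29, adjusted p = 0.733), and near Dgkh are Akap11 (0.07, adjusted p = 0.909) and Vwa8 (−0.19, adjusted p = 0.781). Fasn, the fatty acid synthase gene beside Ccdc57, had −0.23 (adjusted p = 0.80), Slc16a3 1.39 (adjusted p = 0.595) and Ints10, near Csgalnact1, −0.20 (adjusted p = 0.748). Abhd15 and the LOC genes among these neighbours that are in the tables had too few UMIs to test. Naaladl2 and Nceh1 lie on the same chromosome with 13 annotated genes between them, 3 of which code for proteins (Nlgn1, Spata16 and Ect2), and their differences were opposite in sign. LOC134485890 overlaps Nceh1, LOC134482366 and LOC120097455 overlap Csgalnact1, and LOC120101275 and LOC134485889 overlap Naaladl2, so that UMIs could be shared between them where strand was not used.

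The genes most like each of the 6 in level over the 17 classes, by Pearson's r of the mean log2(CPM + 1) over 17739 genes with at least 100 UMIs, were also listed. Classes share libraries and free RNA, so r is a description. Dgkh was most like Suds3 (r = 0.92), Nufip2 (0.90) and Sbf2 (0.90), whose log2 fold changes in crypt nuclei were −0.23, 0.13 and 0.11. Ccdc57 was most like Srpk2 (0.91), Btrc (0.88) and Scube3 (0.88), with −0.26, −0.09 and −1.70. Naaladl2 was most like Mgat3, Shisa6 and Ppp1r14c (0.86 each), all highest in cluster 7, with −0.15, −1.19 and −0.08. Tp53i13 was nearest to Gmfb (0.85), B3gnt2 (0.85) and Ube2h (0.84), with −0.82, 0.81 and −0.17. Nceh1 was nearest to P2ry6 (0.82), with −0.99, B4galt1 (0.80), with 0.10, and Trim7 (0.79). For Csgalnact1 the nearest were LOC102549740 (0.79), LOC120099983 (0.77) and Pld1 (0.76), with −0.37 for Pld1, and Trim7 and both LOC genes were too low to test in the crypt. Among the 6 themselves the highest r was 0.61, between Naaladl2 and Ccdc57.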

How the data were processed

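The deposited values are raw UMI counts of each gene in each barcode, made by the authors with dnbc4tools. The submitters' processing notes name the build mRatBN7.2 and Seurat 4.3.0. The strand setting and the doublet treatment were not given in the sources used here. Barcode names were shared by 701 to 7479 barcodes between pairs of libraries, and they are serial names that identify no cell.

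Passing nuclei were log-normalized with scanpy 1.11.5 (Python 3.11.15) on 2000 variable genes without the 6 genes, reduced to 30 principal components, aligned across libraries by Harmony (re-implemented) and clustered with leidenalg 0.10.2 (20 neighbours, resolution 0.8) into 24 clusters. A cluster was named when its class's markers scored at least 0.5 (mean log2 ratio) and led the next class by at least 1.1. The lead was raised from 0.8 after the clusters were seen, which changed cluster 7 alone, from Paneth-like to unnamed. At 0.8 cluster 7 would join the Paneth-like nuclei, and the crypt would hold stem/TA-like nuclei alone. The crypt log2 fold changes of Ccdc57 and Csgalnact1 depend on that choice. They were −0.58 and 1.21 over both clusters and 0.10 and 2.21 in stem/TA-like nuclei. Scrublet's own threshold marked 0 nuclei, so the 1813 highest scores were marked, and these nuclei were kept. UMIs were summed per rat and class and tested in R 4.3.3 with edgeR 4.0.16 (TMM scaling, low counts removed by filterByExpr, robust quasi-likelihood fit), with DESeq2 1.42.0 as an alternative, after a test on simulated data. Cells of 5 classes with under 10 nuclei in a library were not tested. The rat is the unit, with 3 against 3, and CPM differences cover spread between these rats. Intervals are 95% and on the log2 scale.

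Libraries of the same replicate number deviated together from their group means over all nuclei (r = 0.614, 0.234 and 0.446, against −0.613 to 0.0530 for other pairs). Deviations within a group cancel, so positive r in some pairs comes with negative r in others. The labels state no shared litter or day. The main fits therefore did not pair the samples, and replicate number was a block in an alternative fit only. The 6 genes, the gene lists and the tests were chosen with earlier results of these data known. Named beside the 6 genes are, by rule, the 2 largest and 2 smallest fold changes of each list in crypt nuclei, 2 neighbours on either side in RefSeq and the 3 genes most alike in level over classes. The promoters are of GRCr8, another build than that of the counts.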

Additional observations from a re-analysis of the deposited data

Results flagged for a closer look

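The barcodes that failed the thresholds are used in no comparison above. Summed per library, Nceh1 stood there at 21.7 to 45.5 CPM in SAP, against 8.35 to 14.7 CPM in CON, and Tp53i13 at 54.5 to 99.1 CPM in SAP, against 20.6 to 33.7 CPM in CON. Both were picked out because the lowest SAP library was above the highest control library in barcodes left out of the main measurement. Dgkh stood at 151 to 245 CPM in SAP and 398 to 506 CPM in CON in the same barcodes, and Naaladl2 at 66.3 to 111 and 136 to 202 CPM, the other way round. Csgalnact1 and Ccdc57 overlapped between groups. These barcodes numbered from 1625 to 23026 per library and mix all cell classes. They come from the same libraries that chose the genes and are not independent of them. The share of all genes that separate the groups there was not counted.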

How the results depend on the processing

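Over 22 alternatives each, including 2 added after seeing the data (within each set of libraries), Tp53i13, Nceh1, Dgkh and Naaladl2 kept their direction in crypt nuclei. Full separation of the groups in crypt sums fixed the direction within each set of libraries and left little room with 1 library left out. The value moved by more than the spread between rats in these cases. Cluster 7 alone gave 0.94 for Nceh1, −0.11 for Csgalnact1 (reversed), −0.50 for Dgkh, −0.68 for Naaladl2 and −2.52 for Ccdc57, and stem/TA-like nuclei alone gave 2.37 for Nceh1, 2.21 for Csgalnact1 and 0.10 for Ccdc57 (reversed). With equal weight of both clusters Nceh1 was at 1.20, Csgalnact1 at 0.40, Naaladl2 at −0.71 and Ccdc57 at −1.56. With no integration Nceh1 was at 2.17, Tp53i13 at 1.30 and Ccdc57 at −0.20. There the cluster led by the same genes as cluster 7 (1400 nuclei) was named Paneth-like, so the crypt sums left it out. Those sums thus hold other nuclei than the main ones, and the cause of the shifts was not tested. Within the pair of libraries listing barcodes under 1000 UMIs Tp53i13 was at 1.52 and Ccdc57 at −0.81. With 1 library left out Tp53i13 ranged from 1.64 to 2.39.

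Outside the crypt, where edgeR called 0 classes for each gene, testing every gene with a count called Tp53i13 in 6 classes, Csgalnact1 in 4, Naaladl2 in 3 and Nceh1 and Dgkh in 1 each, 15 in all. DESeq2 called Tp53i13 in 3 and Nceh1 in 1. With 1 library left out Tp53i13 was called in 0 to 2, the 2 without SAP replicate 3. The shares of all genes called without the filter or with 1 library left out are not given here. Whether those counts of calls are unusual therefore cannot be read from them. With replicate number as a block 0 were called and it changed no other call; the value of Tp53i13 in the crypt was then 2.05. The other alternatives called 0.

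Single classes changed sign under some alternatives. For Nceh1 in macrophage-like nuclei the value was −0.0090 at resolution 0.4 and −0.67 to 0.53 with 1 library left out, and for Csgalnact1 in endothelial-like nuclei −0.29 to 0.53. Naaladl2 in tuft-like nuclei was at 0.034 with DESeq2, 0.026 in thinned nuclei and −0.60 to 0.34 with 1 library left out. For Ccdc57, with no integration, goblet-like nuclei were at 0.097, enterocyte-like at 0.032 and SMC-like at 0.082, and enterocyte-like at 0.024 in thinned nuclei. Ccdc57 in B-like nuclei was at −0.022 with no filter, −0.0089 with DESeq2, −0.0077 with the replicate block and −0.029 without doublets, and in endothelial-like nuclei at −0.0015 with the block. With 1 library left out Ccdc57 ranged from −0.25 to 0.0073 in other epithelial nuclei, −0.22 to 0.046 in cluster 1, −0.21 to 0.031 in goblet-like, −0.20 to 0.076 in enterocyte-like, −0.23 to 0.083 in T-like, −0.39 to 0.14 in cluster 6, −0.37 to 0.25 in SMC-like, −0.40 to 0.23 in B-like, −0.16 to 0.055 in tuft-like, −0.090 to 0.59 in enteroendocrine-like and −0.15 to 0.46 in endothelial-like nuclei. Of the values of single classes and genes, 1218 kept their direction and side of the threshold, 25 kept their direction and passed it, and 39 changed sign. Where leaving out a library left 2 rats in a group, these were assumed to vary like the others. Low UMIs limit Nceh1 most, with 0 UMIs in some rats and classes.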
